A study of Mus musculus with 75 samples.

Results

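The 6 genes described here are read in blood: the globin genes Hba-a1, Hba-a2, Hbb-bs and Hbb-bt, the haem synthesis gene Alas2, and Ighm, the constant region of the immunoglobulin mu heavy chain. They were taken as a given list and found by their Ensembl identifiers among the 37310 identifiers of the cortex and nuclei count files and the 55487 of the hippocampus files. Both sets of files hold 1 identifier for each: ENSMUSG00000069919 (Hba-a1), ENSMUSG00000069917 (Hba-a2), ENSMUSG00000052305 (Hbb-bs), ENSMUSG00000073940 (Hbb-bt), ENSMUSG00000025270 (Alas2) and ENSMUSG00000076617 (Ighm). All 6 passed the filter on low counts in every comparison.

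The mice were C57BL/6, taken at postnatal day 21, and differed in Dnmt3a, which codes for a DNA methyltransferase with a longer protein form (DNMT3A1) and a shorter one (DNMT3A2). Messenger RNA was sequenced from cerebral cortex of Dnmt3a1-/- (3 libraries), Dnmt3a2-/- (2) and Dnmt3a1_delta_N (3) mice, and from cortex of wild type mice in 3 numbering series: plain (3 libraries, set against Dnmt3a1-/-), r (2, against Dnmt3a2-/-) and n (3, against Dnmt3a1_delta_N). Hippocampus gave 3 Dnmt3a1-/- and 3 wild type libraries, and cortical nuclei sorted for NeuN, a neuronal antigen, gave 2 libraries labelled Dnmt3a1-/- and 2 wild type ones. These 26 RNA libraries of the 75 samples held 8.7 to 39.0 M reads in genes, and levels are given as counts-per-million of those reads (CPM). The labels do not tie a wild type series to a mutant, and they do not say how the alleles were made or how many animals a library holds.

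Haemoglobin carries oxygen in red blood cells as a tetramer of alpha chains (Hba) and beta chains (Hbb), each holding a haem group. In mammals the last stages of red cell formation lose the nucleus, so globin messenger RNA in circulating blood sits mainly in reticulocytes, the youngest red cells, and a brain that keeps blood in its vessels carries it along. Globin transcripts have also been described in some neurons. ALAS2 is the erythroid form of the enzyme that makes the first committed precursor of haem, and immunoglobulin M is the first antibody class made by B cells.

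The promoters are shown because the globin genes and Alas2 rose and fell together between libraries while the 2 alpha genes can barely be told apart by sequence. The 250 bases before the annotated start were taken from RefSeq on build GRCm38.p6, which is not the build of the counts (mm9), for Hba-a1 (chr11:32283422-32283671, plus strand), Hbb-bs (chr7:103827929-103828178, minus strand), Hbb-bt (chr7:103813924-103814173, minus strand) and Alas2 (chrX:150547167-150547416, plus strand). They read 5′ to 3′ along the gene's strand, with capitals for GATAA or its complement TTATC (the core bound by GATA factors), CACCC or GGGTG (the box bound by KLF1 and relatives), CCAAT or ATTGG (the CCAAT box), and TATAA on the gene's strand.
Hba-a1: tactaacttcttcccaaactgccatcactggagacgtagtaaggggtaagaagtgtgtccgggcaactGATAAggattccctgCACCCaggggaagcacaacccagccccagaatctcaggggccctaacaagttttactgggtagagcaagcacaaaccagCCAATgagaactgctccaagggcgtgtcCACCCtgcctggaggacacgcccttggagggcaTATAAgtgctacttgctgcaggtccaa
Hbb-bs: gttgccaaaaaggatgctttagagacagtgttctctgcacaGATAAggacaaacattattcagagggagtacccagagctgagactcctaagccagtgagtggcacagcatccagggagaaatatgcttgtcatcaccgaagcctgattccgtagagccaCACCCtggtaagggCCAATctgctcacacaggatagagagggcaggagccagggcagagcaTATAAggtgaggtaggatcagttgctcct
Hbb-bt: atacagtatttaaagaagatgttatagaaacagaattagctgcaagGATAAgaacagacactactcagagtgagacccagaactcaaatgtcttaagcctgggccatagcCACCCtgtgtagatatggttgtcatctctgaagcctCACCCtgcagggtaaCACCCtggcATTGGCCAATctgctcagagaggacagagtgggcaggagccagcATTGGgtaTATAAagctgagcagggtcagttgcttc
Alas2: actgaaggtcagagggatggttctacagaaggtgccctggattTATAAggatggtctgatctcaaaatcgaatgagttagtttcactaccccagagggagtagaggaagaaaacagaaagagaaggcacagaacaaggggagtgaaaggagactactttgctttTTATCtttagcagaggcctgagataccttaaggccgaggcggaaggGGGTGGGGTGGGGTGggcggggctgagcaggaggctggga
The window of Hba-a2 (chr11:32296242-32296491, plus strand) shares an unbroken run of 247 of 250 bases with that of Hba-a1, shifted by the annotated start, and is not printed. The Hbb-bs and Hbb-bt windows matched at 185 of 261 aligned columns (70.9%). GATAA stood in the window of all 5 genes that have one, and in 22.6% of the 32817 promoter windows of the table. CACCC stood in all 5 and in 52.0% of all windows, TATAA in all 5 and in 16.0%, and CCAAT in the 4 globin windows, not in that of Alas2, and in 33.8%. TATAA began 27 to 30 bases before the start in the globin windows and 207 bases before it in Alas2. In Hbb-bt an ATTGG and a CCAAT lay side by side, and in Alas2 the 3 GGGTG matches ran one after the other. These are matches of 5 letters and say nothing of whether a factor binds.

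Before the comparisons, 3 features of the libraries bear on these genes. In Dnmt3a1-/- cortex and hippocampus Dnmt3a followed its label, at 73.2, 80.7 and 74.0 CPM in Dnmt3a1-/- cortex against 152, 165 and 146 CPM in wild type, and at 71.5 to 76.1 CPM in Dnmt3a1-/- hippocampus against 134 to 163 CPM in wild type. It does not check the other cortex labels: Dnmt3a was at 132 and 144 CPM in Dnmt3a2-/- cortex, against 153 and 145 CPM in the r series, and at 135 to 139 CPM in Dnmt3a1_delta_N cortex, against 147 to 163 CPM in the n series, and neither difference passed (log2 differences -0.12 and -0.18, adjusted p of 1.00 and 0.59). In nuclei it did not follow the label: the libraries labelled Dnmt3a1-/- held 382 and 369 CPM of Dnmt3a, against 405 and 399 CPM in wild type nuclei, so the direction of every nuclear difference below rests on a label that this gene does not follow. Wild type library 1 of the n series stood above the other libraries of that series in the globin genes and Alas2. The main tests of these genes that use it are given with and without it. Reads set aside for low alignment quality numbered 0 in the 12 plain wild type, Dnmt3a1-/- cortex and hippocampus libraries and were above 0 in the other 14, and whether all were counted in the same way is not stated.

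Across the 22 tissue libraries the 4 globin genes together took between 210 and 776 CPM, with a median of 364 CPM. Hbb-bs, a beta chain gene, ran from 135 to 490 CPM (median 253) and held 56.1% to 75.3% of the globin reads. Hba-a1 ran from 32.5 to 126 CPM (median 54.5), Hba-a2 from 13.7 to 70.2 CPM (median 24.3) and Hbb-bt, the other adult beta gene, from 22.7 to 115 CPM (median 36.7). Alas2 ran from 9.81 to 46.5 CPM (median 22.2). Each of these 5 genes therefore varied 3.63- to 5.14-fold between its lowest and highest tissue library. Ighm varied less, 2.16-fold, from 16.5 to 35.5 CPM (median 25.7).

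**Figure D1:**
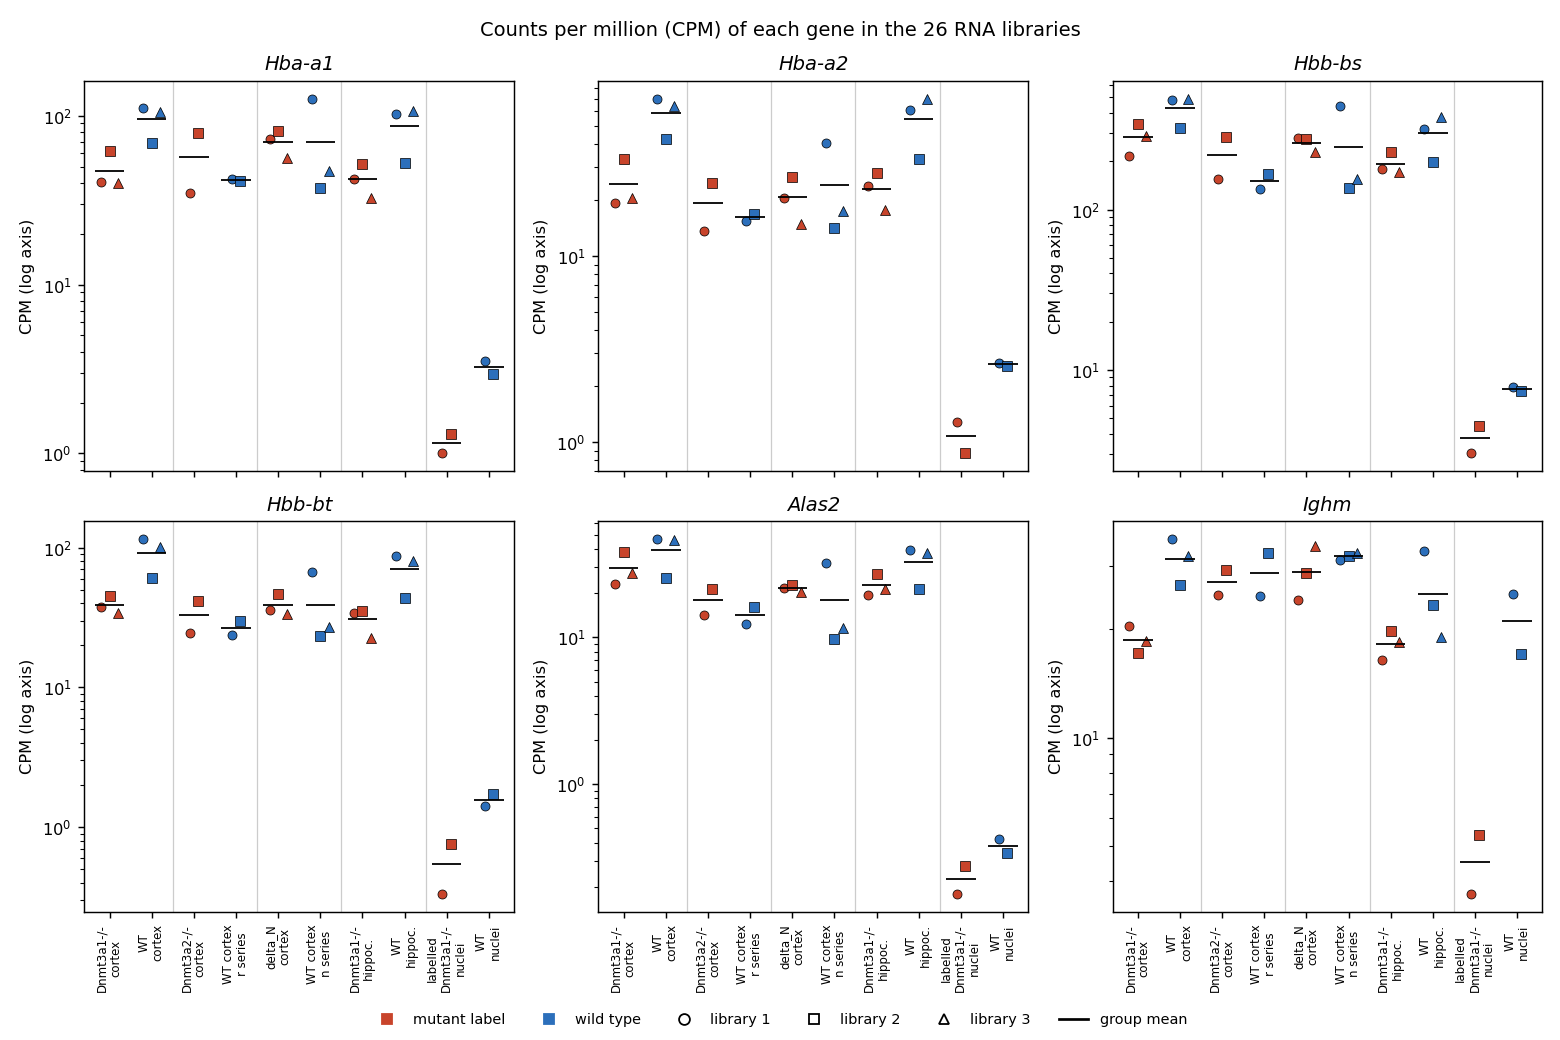
CPM (log axis) of each gene in the 26 RNA libraries, with red points for mutant labels, blue points for wild type, a shape for each library number and a bar for the group mean. In all 4 globin genes and Alas2 the nuclei sit far below both tissues, and in Ighm wild type nuclei sit among the tissues while nuclei labelled Dnmt3a1-/- lie below 6 CPM.

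In Dnmt3a1-/- cortex all 6 genes had lower fitted values than in wild type, and Ighm passed the test. Ighm was read at 20.4, 17.2 and 18.5 CPM in Dnmt3a1-/- cortex, against 35.5, 26.5 and 32.0 CPM in wild type. The highest mutant library lay below the lowest wild type one. The log2 difference of Ighm was -0.76 with an SE of 0.11, a level 0.592 times that of wild type, and edgeR gave it an adjusted p of 0.00068 (3 libraries against 3). It stayed past the threshold under all 13 alternatives, with adjusted p from 1.3e-13 to 0.0059. In the same comparison 17.9% of the 15933 genes tested were called, 8.91% of them as lower, so 1 called gene of 6 is near the background; a fit with the replicate block called 4941 genes in place of 2845, and none of the 5 other genes was among them.

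The alpha genes were lower without passing. Hba-a1 was read at 40.5, 61.6 and 39.8 CPM in Dnmt3a1-/- cortex, against 111, 69.0 and 105 CPM in wild type, and Hba-a2 at 19.2, 33.3 and 20.5 CPM in Dnmt3a1-/- cortex, against 70.2, 42.7 and 64.4 CPM in wild type. In both genes every mutant library lay below every wild type one. The log2 difference was -0.999 ± 0.28 for Hba-a1 (adjusted p = 0.080) and -1.26 ± 0.31 for Hba-a2 (adjusted p = 0.060).

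The beta genes parted. Hbb-bt was read at 37.3, 45.4 and 34.1 CPM in Dnmt3a1-/- cortex, against 115, 60.4 and 101 CPM in wild type, with no overlap and a log2 difference of -1.24 ± 0.29 (adjusted p = 0.052). Hbb-bs was read at 217, 342 and 288 CPM in Dnmt3a1-/- cortex, against 479, 323 and 490 CPM in wild type, and overlapped through library 2 of each group (log2 difference -0.61 ± 0.25, adjusted p = 0.18). Alas2, at 22.9, 38.1 and 27.3 CPM in Dnmt3a1-/- cortex against 46.5, 25.3 and 45.7 CPM in wild type, overlapped in the same way (log2 difference -0.39 ± 0.33, adjusted p = 0.50). Every mutant library lay below every wild type library in 4 of the 6 genes, against 17.7% of all genes tested.

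The calls on the globins depend on the fit and on library 2 of either group. Without robust estimation of the spread all 4 globin genes were called, with adjusted p from 0.0020 to 0.029, and DESeq2 called Hba-a1, Hba-a2 and Hbb-bt. Without wild type library 2, edgeR gave adjusted p of 0.018 for Hba-a1, 0.034 for Hba-a2 and 2.0e-05 for Hbb-bt, and without Dnmt3a1-/- library 2 it gave 0.037 for Hba-a1 and 0.028 for Hba-a2. Set against all 8 wild type cortex libraries, the log2 difference shrank to -0.59 for Hba-a1, -0.50 for Hba-a2, -0.03 for Hbb-bs and -0.50 for Hbb-bt, and turned to 0.27 for Alas2, while that of Ighm was -0.71 (adjusted p = 0.0016). Without library 1 of the n series the same values were -0.44, -0.48, 0.072, -0.47, 0.32 and -0.72, the last with an adjusted p of 0.0025.

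Other red cell genes went in both directions. Of 23 genes on the erythroid list 12 were tested in Dnmt3a1-/- cortex, 3 were called lower and 1 higher, with a median log2 difference of -0.18 against 0.0061 over all genes. The lower ones were Trim10, a gene of late erythroid cells (-2.54 ± 0.60, adjusted p = 0.014), Slc4a1, the band 3 anion exchanger (-1.69 ± 0.45, adjusted p = 0.039), and Ank1, the ankyrin of the red cell skeleton that neurons also use (-0.28 ± 0.07, adjusted p = 0.016). Tspan33 was the higher one (0.38 ± 0.09, adjusted p = 0.0088). Slc4a1 was read at 0.834 to 1.33 CPM in Dnmt3a1-/- cortex, against 2.16 to 6.01 CPM in plain wild type, with no overlap. Wild type cortex of the r series held 0.326 and 1.49 CPM, and that of the n series 0.219 to 1.38 CPM. Of the 6 red cell markers Slc4a1, Epb42, Klf1, Gata1, Hemgn and Rhag, only Slc4a1 was read in any number, with 71 reads in Dnmt3a1-/- cortex and 249 in wild type, while each of the other 5 had at most 13 reads in either group. The sum of these 6 markers was mostly Slc4a1. It ran from 1.02 to 1.62 CPM in Dnmt3a1-/- cortex and from 2.46 to 6.79 CPM in plain wild type, with no overlap. In the r series it was 0.399 and 1.77 CPM, and in the n series 0.406 to 1.71 CPM. For this sum and for Slc4a1 the Dnmt3a1-/- values thus lay inside the range of those wild type libraries. The whole erythroid list summed to 813 to 908 CPM in Dnmt3a1-/- cortex and 857 to 900 CPM in wild type, so the groups overlapped. The list also summed to 832 and 831 CPM in wild type neuron nuclei, so it does not measure red cells alone. In bulk tissue, fewer blood cells and less RNA per cell cannot be told apart.

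Haem and iron genes outside the red cell did not share one direction. Of the 14 haem synthesis genes tested, Ppox, the oxidase before the last step, was called higher (0.36 ± 0.08, adjusted p = 0.010) and Tmem14c, a mitochondrial porphyrin carrier, lower (-0.22 ± 0.07, adjusted p = 0.048), with a median of 0.01. Of 11 haem breakdown and iron genes, the ferroxidase gene Heph (0.53 ± 0.08) and the ferritin light chain gene Ftl1 (0.28 ± 0.07) rose, and Trf, transferrin (-0.31 ± 0.09), and Slc40a1, the iron exporter ferroportin (-0.85 ± 0.22), fell.

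Vessel and plexus markers were measured beside the globins. Of 20 endothelial genes tested 5 were called lower, among them Itm2a, Slco1c1, Emcn and Tie1, and 1 higher, with a median log2 difference of -0.0024. Of 15 mural and meningeal genes 3 were called lower, namely Lum, Rgs5 and Col1a1, with a median of -0.24. The summed endothelial list ran from 1619 to 1818 CPM in Dnmt3a1-/- cortex and from 1641 to 2060 CPM in wild type, and the mural and meningeal list from 741 to 818 CPM in Dnmt3a1-/- cortex and from 825 to 1202 CPM in wild type, with no overlap. The choroid plexus list ran from 1422 to 2867 CPM in Dnmt3a1-/- cortex and from 570 to 1464 CPM in wild type, with a median of 0.93 and 0 of its 13 genes called. The part of vessels, meninges or plexus in the globin values was not tested.

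**Figure D2:**
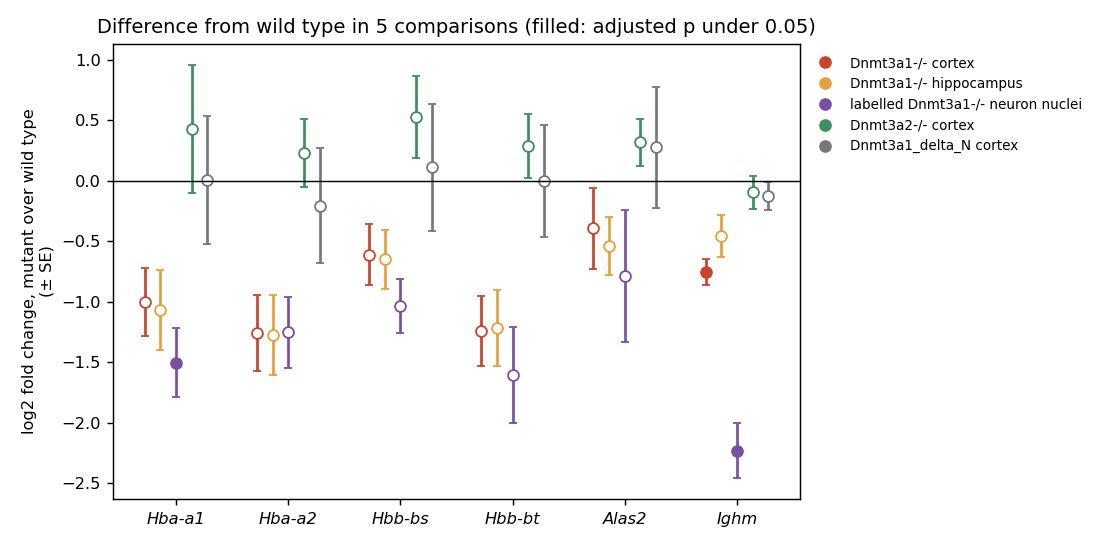
Log2 fold change, mutant over wild type, with its SE, of the 6 genes in 5 comparisons, with filled points for an adjusted p under 0.05. Only Ighm in Dnmt3a1-/- cortex (-0.76) and Hba-a1 (-1.50) and Ighm (-2.23) in nuclei labelled Dnmt3a1-/- are filled.

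In Dnmt3a1-/- hippocampus the fitted differences were of like size, and none of the 6 genes passed. Hba-a1 was read at 42.2, 51.9 and 32.5 CPM in Dnmt3a1-/- hippocampus, against 102, 52.4 and 106 CPM in wild type (log2 difference -1.07 ± 0.33, adjusted p = 0.19). Hba-a2 had 23.8, 27.9 and 17.7 CPM in Dnmt3a1-/- hippocampus, against 61.4, 33.1 and 69.7 CPM in wild type (-1.27 ± 0.33, adjusted p = 0.13). Both alpha genes kept the groups apart, Hba-a1 by less than 1 CPM.

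Hbb-bt was read at 34.1, 35.4 and 22.7 CPM in Dnmt3a1-/- hippocampus, against 86.6, 43.6 and 79.6 CPM in wild type, again with no overlap (-1.21 ± 0.31, adjusted p = 0.13). Hbb-bs, at 178, 229 and 172 CPM in Dnmt3a1-/- hippocampus against 319, 197 and 377 CPM in wild type, overlapped (-0.65 ± 0.25, adjusted p = 0.23), and so did Alas2, at 19.5, 26.8 and 21.4 CPM in Dnmt3a1-/- hippocampus against 39.1, 21.5 and 37.7 CPM in wild type (-0.54 ± 0.24, adjusted p = 0.29). Ighm, at 16.5, 19.8 and 18.4 CPM in Dnmt3a1-/- hippocampus against 33.0, 23.4 and 19.0 CPM in wild type, overlapped through wild type library 3 (-0.45 ± 0.17, adjusted p = 0.19). Of all genes tested 2.52% were called, and every mutant library lay below every wild type library in 8.34% of them and in 3 of the 6 genes.

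In hippocampus too the calls depend on 1 library: without wild type library 2 the 4 globin genes and Alas2 were called, with adjusted p from 0.0017 to 0.030. Wild type library 2 was the lowest of its group, and Dnmt3a1-/- library 2 the highest of its group, in all 4 globin genes and Alas2, in cortex and in hippocampus alike. The labels do not say whether same-numbered libraries of the 2 tissues come from 1 animal, so the tissues may not be independent. The difference between the cortex and hippocampus effects was -0.31 ± 0.23 for Ighm and between -0.03 and 0.14 for the other 5 genes, and none passed (adjusted p from 0.98 to 1.00, with 0% of genes called). On the erythroid list 1 of 11 tested genes was called in hippocampus, Tfrc, the transferrin receptor, as higher (0.46 ± 0.10, adjusted p = 0.032).

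The mural and meningeal list summed to 628, 607 and 520 CPM in Dnmt3a1-/- hippocampus, against 736, 674 and 648 CPM in wild type, with no overlap. Of its 15 genes tested 1 was called, the pericyte gene Rgs5, as lower (-0.48 ± 0.11, adjusted p = 0.035). The median log2 difference of the list was -0.047. Of 20 endothelial genes tested 1 was called, Itm2a, as lower (-0.47 ± 0.09, adjusted p = 0.013), with a median of 0.035. The endothelial sum ran from 1248 to 1360 CPM in Dnmt3a1-/- hippocampus and from 1172 to 1410 CPM in wild type. Of all genes 2.52% were called in this comparison, 0.827% as lower. The plexus list summed to 983, 2862 and 223 CPM in Dnmt3a1-/- hippocampus, against 303, 372 and 291 CPM in wild type, with its highest value in Dnmt3a1-/- library 2, which was also the highest of its group in the globins and Alas2. The part of these tissues in the globin values was not tested.

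**Figure D3:**
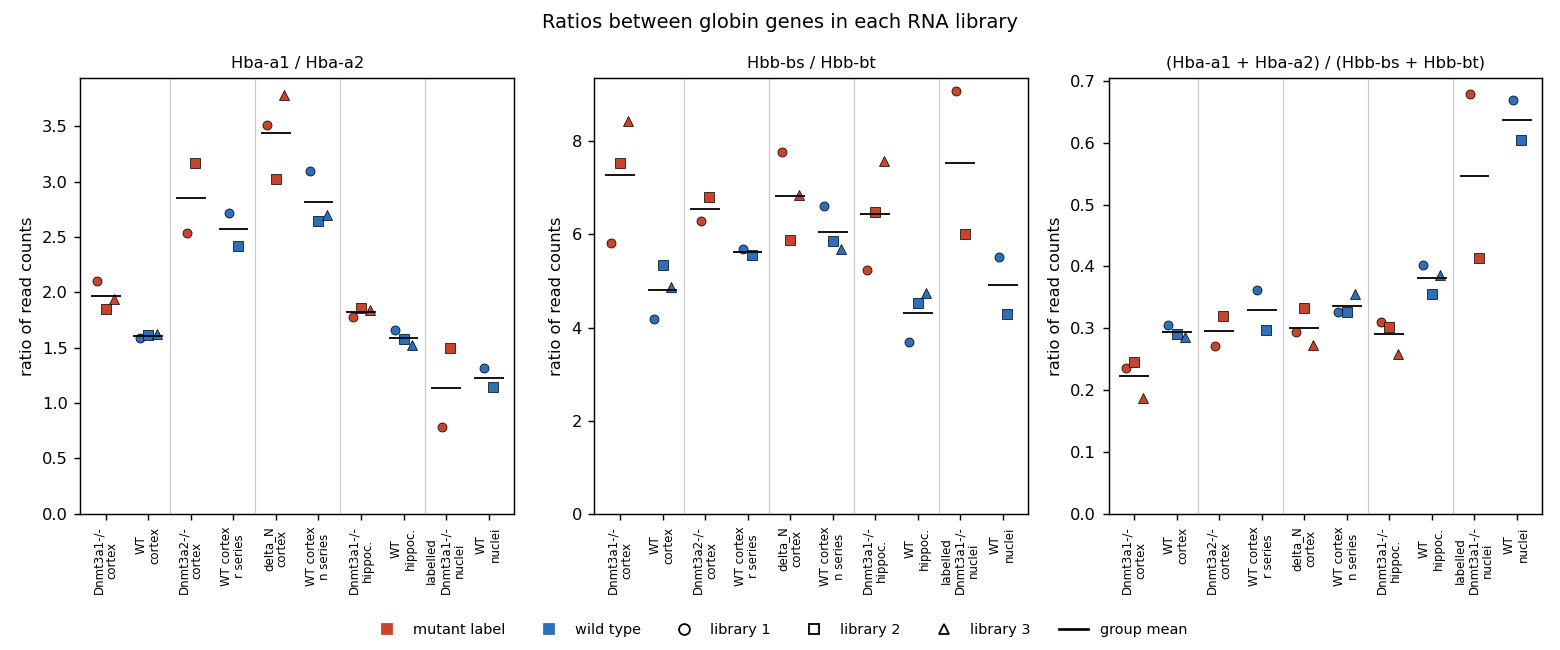
Ratios of read counts between globin genes in each RNA library, with a bar for the group mean. In cortex and in hippocampus every Dnmt3a1-/- library lies above every wild type library for Hba-a1 over Hba-a2 and Hbb-bs over Hbb-bt, and below it for alpha over beta reads.

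Ratios within a library do not depend on its total. These ratios were chosen after the values were seen and carry no test; with 3 libraries against 3 an exact two-sided permutation test cannot go below 0.10. Hbb-bs over Hbb-bt was 5.81, 7.53 and 8.44 in Dnmt3a1-/- cortex, against 4.18, 5.35 and 4.86 in wild type, and 5.22, 6.49 and 7.56 in Dnmt3a1-/- hippocampus against 3.69, 4.52 and 4.74 in wild type. The groups did not overlap in either tissue.

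Hba-a1 over Hba-a2 was 2.11, 1.85 and 1.94 in Dnmt3a1-/- cortex, against 1.59, 1.62 and 1.63 in wild type, and 1.78, 1.86 and 1.84 in Dnmt3a1-/- hippocampus against 1.66, 1.58 and 1.53 in wild type. Reads of both alpha genes over reads of both beta genes came to 0.223 ± 0.031 in Dnmt3a1-/- cortex and 0.294 ± 0.010 in wild type (SD, n = 3 each), and to 0.290 ± 0.028 in Dnmt3a1-/- hippocampus and 0.381 ± 0.024 in wild type. The 4 globins over Alas2 came to 13.5 ± 0.7 in Dnmt3a1-/- cortex and 17.6 ± 1.7 in wild type, and to 12.9 ± 1.4 in Dnmt3a1-/- hippocampus and 15.5 ± 1.1 in wild type. Hbb-bs over Alas2 overlapped in both tissues. It ran from 8.97 to 10.6 in Dnmt3a1-/- cortex and from 10.3 to 12.8 in wild type. In hippocampus it ran from 8.02 to 9.17 in Dnmt3a1-/- and from 8.17 to 10.0 in wild type. The other ratios given here did not overlap between the groups in either tissue. Some did not overlap elsewhere either: Hbb-bs over Hbb-bt was 6.28 and 6.79 in Dnmt3a2-/- cortex, against 5.68 and 5.55 in the r series, and 9.08 and 6.00 in nuclei labelled Dnmt3a1-/-, against 5.52 and 4.30 in wild type nuclei. The 4 globins over Alas2 ran from 16.4 to 19.0 in Dnmt3a1_delta_N cortex and from 20.9 to 21.4 in the n series, and came to 31.4 and 26.9 in nuclei labelled Dnmt3a1-/- and 36.3 and 43.2 in wild type nuclei. The nuclear ratios rest on few reads, with 7 to 15 of Alas2 and 13 to 61 of Hbb-bt in a library. Since groups also kept apart in Dnmt3a2-/- and Dnmt3a1_delta_N cortex, the shifts are not shown to be particular to Dnmt3a1-/- tissue.

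The alpha gene ratio also split with the line of low-quality reads in the files. It ran from 2.42 to 3.78 in the 10 cortex libraries with low-quality reads set aside (Dnmt3a2-/-, Dnmt3a1_delta_N and the r and n series), and from 1.53 to 2.11 in the 12 tissue libraries with none. The 2 genes are near copies, so how reads are shared between Hba-a1 and Hba-a2 is uncertain, and the part of alignment or counting in this ratio was not tested. Reads without a unique alignment were left out, 10.97% to 17.85% of reads in the tissue libraries. How far this lowers the alpha reads was not tested, so alpha over beta and the Hbb-bs share are ratios of counted reads, not of transcripts. Hbb-bs over Hbb-bt overlapped between the sets, at 5.55 to 7.77 in the first and 3.69 to 8.44 in the second, but split among wild type libraries, at 5.55 to 6.60 in the 5 of the first set and 3.69 to 5.35 in the 6 of the second. The Dnmt3a1-/- libraries of the second set ran from 5.22 to 8.44.

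In Dnmt3a2-/- cortex no member passed. Hba-a1 was read at 34.7 and 78.7 CPM in Dnmt3a2-/- cortex, against 42.0 and 41.0 CPM in the r series, and Hba-a2 at 13.7 and 24.9 CPM in Dnmt3a2-/- cortex, against 15.4 and 16.9 CPM in the r series. Hbb-bs had 154 and 283 CPM in Dnmt3a2-/- cortex, against 135 and 165 CPM in the r series, Hbb-bt 24.5 and 41.6 CPM in Dnmt3a2-/- cortex, against 23.8 and 29.8 CPM in the r series, and Alas2 14.2 and 21.5 CPM in Dnmt3a2-/- cortex, against 12.3 and 16.0 CPM in the r series. Dnmt3a2-/- library 2 was the highest of the 4 in these 5 genes, and the groups overlapped in every one. The same library stood apart in the plexus list, at 418 CPM in Dnmt3a2-/- library 1 and 2465 CPM in library 2, against 756 and 404 CPM in the r series, and was highest in the mural and meningeal list, at 570 and 774 CPM in Dnmt3a2-/- cortex, against 595 and 678 CPM in the r series. The part of those tissues was not tested.

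The log2 differences ran from 0.23 ± 0.28 for Hba-a2 to 0.53 ± 0.34 for Hbb-bs, each with an adjusted p of 1.00. Ighm was read at 24.9 and 29.1 CPM in Dnmt3a2-/- cortex, against 24.7 and 32.5 CPM in the r series (-0.09 ± 0.14). Of all genes 0.00628% were called (1 of 15929), and the groups did not overlap in 27.4% of genes and in 0 of the 6. Without Dnmt3a2-/- library 1, Hba-a1 (0.90, adjusted p = 0.00030), Hba-a2 (0.60, adjusted p = 0.036) and Hbb-bs (0.89, adjusted p = 0.0092) were called higher, with the remaining mutant library assumed to vary like the wild type ones. Without library 2, the Hba-a1 value was -0.26 and that of Hba-a2 -0.24.

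The Dnmt3a1-/- and Dnmt3a2-/- effects in cortex differed by -1.14 to -1.52 on the log2 scale in the globins, by -0.71 ± 0.51 in Alas2 and by -0.66 ± 0.18 in Ighm. None passed (adjusted p from 0.16 to 0.64, with 0.205% of genes called). Without the filter on low counts all 6 were called, with adjusted p of at most 0.0013, and 591 genes in place of 34.

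In Dnmt3a1_delta_N cortex none of the 6 genes passed against the n series, whose library 1 stood apart. Hba-a1 was read at 72.3, 80.9 and 56.5 CPM in Dnmt3a1_delta_N cortex, against 126, 37.5 and 47.0 CPM in wild type, and Hba-a2 at 20.6, 26.7 and 14.9 CPM in Dnmt3a1_delta_N cortex, against 40.7, 14.2 and 17.4 CPM in wild type. Hbb-bs had 280, 276 and 228 CPM in Dnmt3a1_delta_N cortex, against 443, 135 and 154 CPM in wild type. Hbb-bt had 36.0, 46.9 and 33.3 CPM in Dnmt3a1_delta_N cortex, against 67.1, 23.1 and 27.2 CPM in wild type, and Alas2 had 21.7, 22.7 and 20.3 CPM in Dnmt3a1_delta_N cortex, against 32.3, 9.81 and 11.5 CPM in wild type. In all 5 the mutant libraries lay below wild type library 1, and in all but Hba-a2 they lay above wild type libraries 2 and 3.

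The log2 differences were 0.0066 ± 0.53 for Hba-a1, -0.20 ± 0.48 for Hba-a2, 0.11 ± 0.52 for Hbb-bs, -0.0027 ± 0.46 for Hbb-bt and 0.28 ± 0.50 for Alas2, with adjusted p of at least 0.93. Without wild type library 1 they were 0.74, 0.41, 0.86, 0.63 and 1.03, and Alas2 was called higher (adjusted p = 0.030). Ighm was read at 24.1, 28.7 and 34.0 CPM in Dnmt3a1_delta_N cortex, against 31.2, 31.9 and 32.5 CPM in wild type, where library 1 did not stand apart (-0.12 ± 0.12, adjusted p = 0.85). Of all genes 0% were called (1267 had an unadjusted p under 0.05, DESeq2 called 43, and the fit with the replicate block called 33 as higher and 86 as lower). The groups did not overlap in 12.8% of genes and in 0 of the 6.

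The Ighm effect of Dnmt3a1-/- minus that of Dnmt3a1_delta_N in cortex was -0.64 ± 0.18, with an adjusted p of 0.21. Those of the globins and Alas2 ran from -1.24 to -0.67, with adjusted p of at least 0.48, and 0.103% of genes were called. Without wild type library 1 of the n series the difference was -0.62 ± 0.19 for Ighm and between -1.88 and -1.43 for the other 5, and none passed (adjusted p from 0.21 to 0.36). No list gene of the blood, haem or iron lists was called in Dnmt3a2-/- or Dnmt3a1_delta_N cortex.

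The 8 wild type cortex libraries show how far the globins move without a mutation, within and between 3 series that may not have been counted alike. Hbb-bs averaged 291 ± 161 CPM over them (SD, n = 8) and Alas2 24.9 ± 15.1 CPM, against 30.9 ± 3.5 CPM for Ighm. Without library 1 of the n series they averaged 269 ± 161, 23.9 ± 16.0 and 30.8 ± 3.8 CPM (n = 7). The plain series held 323 to 490 CPM of Hbb-bs, the r series 135 and 165 CPM, and the n series 135 to 443 CPM. All 3 Dnmt3a1-/- cortex values of Hbb-bs (217 to 342 CPM) lay inside this pooled wild type range, but those of 217 and 288 CPM lay below every plain library. All 3 of Ighm (17.2 to 20.4 CPM) lay below the lowest wild type library (24.7 CPM).

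**Figure D4:**
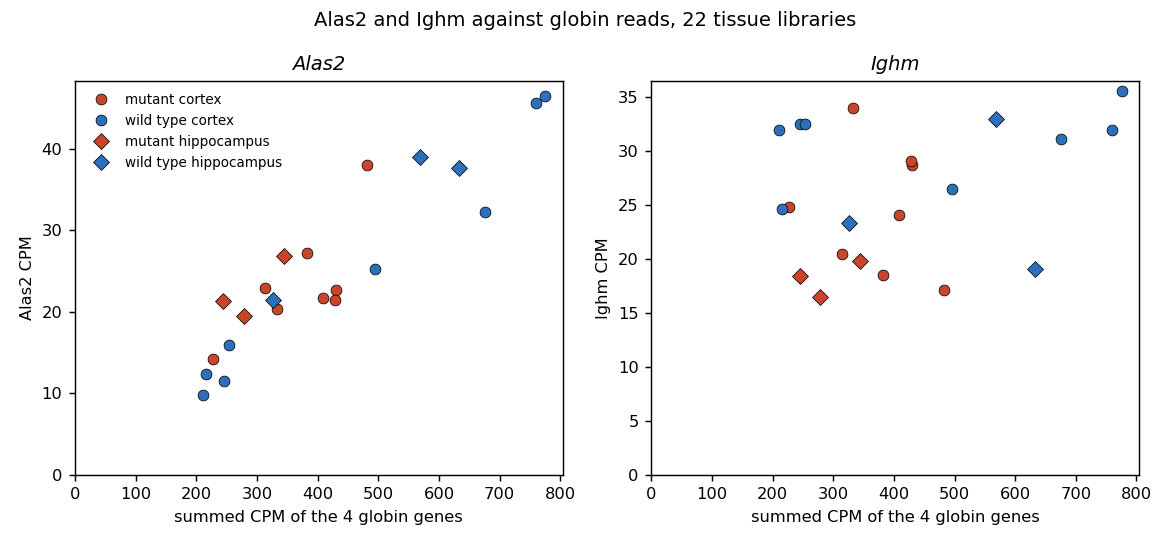
Alas2 CPM (left) and Ighm CPM (right) against the summed CPM of the 4 globin genes in the 22 tissue libraries, with red for mutants, blue for wild type, circles for cortex and diamonds for hippocampus. Alas2 climbs with the globins across the libraries, while Ighm lies between 16.5 and 35.5 CPM at low and high globin sums alike.

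Within groups the globins and Alas2 moved as one. With each group's mean removed, log2(CPM + 1) over the 22 tissue libraries was most like the summed globins in Hbb-bs (Pearson r = 0.994), Hba-a1 (0.979), Alas2 (0.967), Hba-a2 (0.964) and Hbb-bt (0.948), of which the 4 globins are part of the sum, and r was 0.088 in Ighm. These values describe libraries that share preparation and counting, and carry no test. Of 13942 genes with a mean of at least 1 CPM, the most alike outside the list were Ube2l6, which codes for a ubiquitin-conjugating enzyme (0.923), and Isg20, an exonuclease gene named for its response to interferon (0.887), followed by Hdgf (0.747), Vcp-rs (0.702), Gm13835 (0.701), Pdzd4 (0.693), Gm8430 (0.692) and Sntb2 (0.689). Among listed genes, Bpgm, the red cell bisphosphoglycerate mutase, reached 0.642 and Slc4a1 0.625. The other ranked genes of the erythroid list ran from 0.535 down to -0.275 in Slc25a37 and -0.429 in Tfrc, so that list did not move with the globins as a set. Without wild type library 1 of the n series (21 libraries), r was 0.912 to 0.989 in the globins, 0.934 in Alas2, 0.171 in Ighm, 0.862 in Ube2l6, 0.829 in Isg20 and 0.826 in Hdgf. It fell to 0.624 in Sntb2, 0.577 in Pdzd4 and 0.52 in Vcp-rs. In Gm13835 it fell to 0.323 and in Gm8430 to 0.199, so the likeness of these last genes rests on that library. Gm8430 had 0 reads in every hippocampus library.

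Ube2l6 was read at 7.41, 8.23 and 7.55 CPM in Dnmt3a1-/- cortex, against 12.4, 8.35 and 9.62 CPM in wild type (log2 difference -0.39 ± 0.14, adjusted p = 0.074), and at 8.87, 10.2 and 7.89 CPM in Dnmt3a1_delta_N against 11.0, 5.78 and 6.69 CPM in the n series. Ube2l6 was picked for its likeness to the globins over these same libraries. Its high library 1 of the n series and low library 2 of the plain series follow from that choice.

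Sorted neuron nuclei held far fewer globin reads than cortex. Wild type nuclei had 3.52 and 2.94 CPM of Hba-a1, 2.67 and 2.57 CPM of Hba-a2, 7.84 and 7.40 CPM of Hbb-bs, 1.42 and 1.72 CPM of Hbb-bt and 0.426 and 0.339 CPM of Alas2. The log2 difference between wild type nuclei and wild type cortex was -4.59 ± 0.70 for Hba-a1, -3.70 ± 0.58 for Hba-a2, -5.30 ± 0.69 for Hbb-bs, -5.12 ± 0.72 for Hbb-bt and -6.06 ± 0.93 for Alas2 (n = 2 against 8, adjusted p from 0.00032 to 0.00086 in edgeR). Without library 1 of the n series these ran from -5.80 to -3.50, and all 5 stayed called. Endothelial genes were lower too, with 19 of 20 called lower and a median of -6.68. Of 9 neuron genes tested 5 were called lower and 1 higher, with a median of -0.56. Cell type and the preparation of nuclei cannot be told apart here.

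Ighm did not follow them. It was read at 25.0 and 17.1 CPM in wild type nuclei, against 24.7 to 35.5 CPM in the 8 wild type cortex libraries, a log2 difference of -0.80 ± 0.16 (adjusted p = 0.00061). All 6 genes were called lower in nuclei, in a comparison where 85.5% of genes were called and 42.7% called lower, so the calls themselves set nothing apart. Wild type hippocampus and wild type cortex did not differ in any of the 6 genes past the threshold, where 55.6% of genes were called. The nearest was Ighm, at 25.1 ± 7.1 CPM in hippocampus (SD, n = 3) and 30.9 ± 3.5 CPM in cortex (n = 8), with a log2 difference of -0.37 ± 0.15 and an adjusted p of 0.0504; the files of the 2 tissues list different sets of identifiers. Without library 1 of the n series, Hba-a2 (1.08 ± 0.27, adjusted p = 0.012) and Alas2 (0.78 ± 0.27, adjusted p = 0.045) were called higher in hippocampus, and the adjusted p of Ighm was 0.068.

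Between the nuclei, the libraries labelled Dnmt3a1-/- were lower than wild type in all 6 genes, and Ighm and Hba-a1 passed. Ighm was read at 3.69 and 5.38 CPM (144 and 136 reads) in nuclei labelled Dnmt3a1-/-, against 25.0 and 17.1 CPM (880 and 604 reads) in wild type nuclei. The groups lay far apart, and the log2 difference of Ighm was -2.23 with an SE of 0.23, a level 0.213 times that of wild type nuclei (2 libraries against 2, edgeR adjusted p = 0.00057). It stayed past the threshold under all 9 alternatives (adjusted p from 2.2e-35 to 0.038). Only 39 of 15860 genes (0.246%) were called, and 5 of them (0.0315%) as lower, 2 of which are Ighm and Hba-a1.

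Hba-a1 was read at 0.999 and 1.31 CPM in nuclei labelled Dnmt3a1-/- (39 and 33 reads), against 3.52 and 2.94 CPM in wild type nuclei (124 and 104 reads), and fell by 1.50 ± 0.28 (adjusted p = 0.035). The groups did not overlap, but the call was lost without wild type library 1 (adjusted p = 0.43), without wild type library 2 (0.067) and without library 1 labelled Dnmt3a1-/- (0.053). Hba-a2 was read at 1.28 and 0.870 CPM in nuclei labelled Dnmt3a1-/-, against 2.67 and 2.57 CPM in wild type nuclei. Hbb-bs had 3.02 and 4.51 CPM in nuclei labelled Dnmt3a1-/-, against 7.84 and 7.40 CPM in wild type nuclei, and Hbb-bt had 0.333 and 0.752 CPM in nuclei labelled Dnmt3a1-/-, against 1.42 and 1.72 CPM in wild type nuclei. The log2 difference was -1.25 ± 0.30 for Hba-a2 (adjusted p = 0.11), -1.03 ± 0.22 for Hbb-bs (adjusted p = 0.080) and -1.60 ± 0.40 for Hbb-bt (adjusted p = 0.13). Of 9 alternatives, 3 called Hba-a2, 4 called Hbb-bs and 3 called Hbb-bt, among them the fit without the filter and the one with the replicate block, and the adjusted p went as low as 3.3e-05 for Hbb-bs.

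Alas2, with 7 and 7 reads in nuclei labelled Dnmt3a1-/- and 15 and 12 reads in wild type nuclei, was too thinly read to tell (-0.79 ± 0.55, adjusted p = 0.73). Every library labelled Dnmt3a1-/- lay below every wild type one in all 6 genes, and in 19.6% of all genes. Endothelial markers summed to 41.7 and 44.1 CPM in nuclei labelled Dnmt3a1-/- and 35.7 and 46.8 CPM in wild type nuclei, and 0 genes of any blood list were called. With 2 libraries a group, an exact permutation test of one gene cannot go below 0.33.

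**Figure D5:**
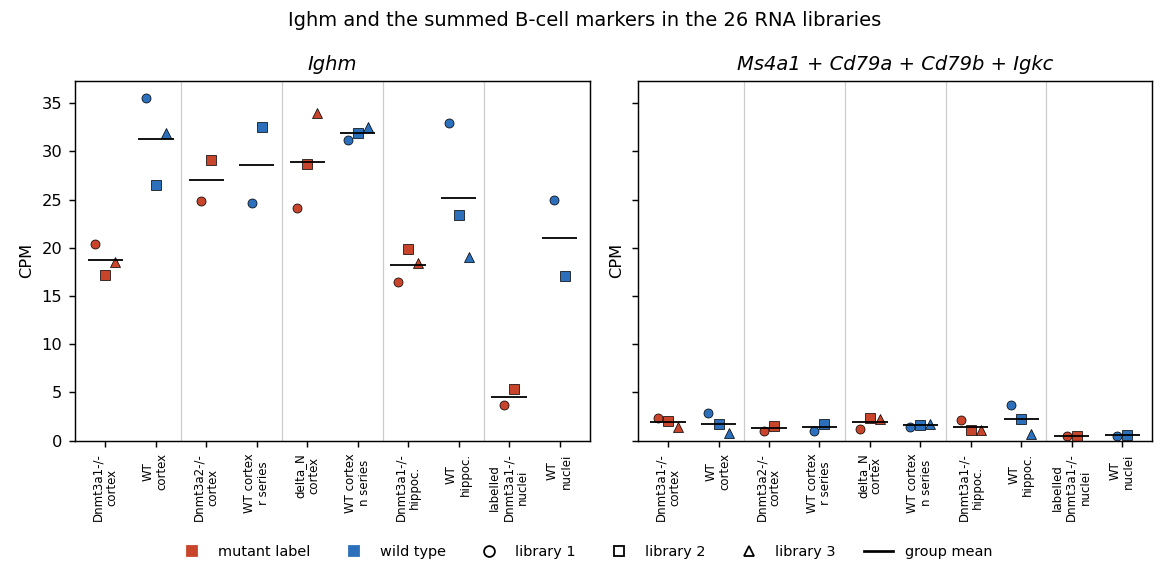
CPM of Ighm (left) and the summed CPM of 4 B-cell markers (right) in the 26 RNA libraries on 1 linear scale, with a bar for the group mean. Ighm lies between 16.5 and 35.5 CPM in tissue and at 25.0 and 17.1 CPM in wild type nuclei, while the summed markers reach at most 3.69 CPM in any library.

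Reads of other B-cell genes were few beside those of Ighm. The sum of Ms4a1, Cd79a, Cd79b and Igkc, which mark B cells or code for parts of their receptor, ran from 1.40 to 2.30 CPM in Dnmt3a1-/- cortex and from 0.731 to 2.82 CPM in wild type, overlapping where Ighm did not. In nuclei it was 0.435 and 0.475 CPM in the libraries labelled Dnmt3a1-/- and 0.511 and 0.537 CPM in wild type, and Ms4a1 was at 0 in all 4. Igkc, the kappa light chain that pairs with the mu chain, had 4 reads in the nuclei labelled Dnmt3a1-/- and 1 read in wild type nuclei, against 280 and 1484 reads of Ighm.

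Of the 20 genes on the B-cell and immunoglobulin list 3 were tested in Dnmt3a1-/- cortex. Of these 1 was called, Ighg2c, a gamma heavy chain, as lower (-0.66 ± 0.21, adjusted p = 0.043). The median log2 difference of the 3 was 0.60, so the others were higher, without passing. Ighg2c was read at 1.02 to 1.60 CPM in Dnmt3a1-/- cortex, against 2.14 to 2.33 CPM in wild type. Jchain, which joins IgM chains into pentamers, was read at 3.79 and 4.11 CPM in nuclei labelled Dnmt3a1-/- and 4.58 and 6.00 CPM in wild type nuclei, against 0.224 to 0.533 CPM in wild type cortex. It was higher in wild type nuclei than in wild type cortex by 3.54 ± 0.21 in log2 (adjusted p = 2.3e-11). The rest of the list did not share this direction. Of its 6 genes tested there 1 was called higher and 4 lower, with a median of -1.98. Of all genes 42.7% were called higher in that comparison. The library kit keeps strand, but the strand setting of the counting is not given in the sources used here, so reads from the Ighm gene and from an overlapping or antisense transcript cannot be told apart.

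Klf1 and Gata1, nuclear factors of red cell precursors, were at or near 0. Tal1, also on the erythroid list, averaged 4.47 CPM over the 22 tissue libraries. Klf1, a driver of adult globin transcription, had at most 10 reads in any group, and Gata1 at most 2. The embryonic globins Hba-x, Hbb-y and Hbb-bh1 had at most 16 reads in any group.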

How the data were processed

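The deposited values are raw counts, 1 file per library; per the submitters' processing notes, reads were aligned to mm9 with STAR 2.5.4a and counted with HTSeq 0.11.0. The annotation release and strand setting are not given in the sources used here. Lines that name no gene (21.14% to 36.97% of reads) were left out. CPM is the count over the gene total, with no further scaling. The labels do not say whether replicates are different animals; the tests see only library-to-library spread, which may be technical.

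Whole tables were tested in R 4.3.3 with edgeR 4.0.16, using filterByExpr, TMM scaling and the robust quasi-likelihood F-test. Genes with a Benjamini-Hochberg adjusted p below 0.05 are called. A log2 fold change sets mutant over wild type, and its SE is its size divided by the root of F. DESeq2 1.42.0, RLE scaling, no filter, no robust estimation, a replicate block, all 8 wild type cortex libraries and leaving out each library were alternatives. Leaving library 1 of the n series out of the other fits that use it was added after seeing the data. The fits were tested on simulated data.

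The 6 genes, the marker lists and the tests were chosen with earlier results of these data known; some listed genes are not reported here and were left out of the list counts and marker sums after those had been seen. Named genes are the 6, up to 4 called genes per list with the smallest p, and the 8 genes most like the summed globins. Slc4a1, Igkc, Klf1, Gata1, Tal1, the embryonic globins and the ratios between globins were chosen after their values were seen.

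Same-numbered libraries deviated together across genes in Dnmt3a1-/- cortex (correlations 0.231, 0.38 and 0.18) and Dnmt3a1_delta_N cortex (0.369, 0.247 and 0.434), so equal numbers may mark pairs there, on the data's evidence and not the labels'. Reported values come from the fit without the block. The 49 other samples were not analysed here. Promoters are from RefSeq; Ighm has no entry in that table.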

Additional observations from a re-analysis of the deposited data

How the results depend on the processing

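Of 420 alternative values of single genes, 334 kept their direction and their side of the threshold, 47 newly passed it, 3 lost it (Hba-a1 in nuclei) and 36 changed sign; the cause was not tested. Without the filter on low counts, the called genes numbered 64 in Dnmt3a2-/- cortex, 17 in Dnmt3a1_delta_N cortex (6 higher and 11 lower), 1039 in Dnmt3a1-/- hippocampus and 243 in nuclei, and, for the differences between effects, 3 (cortex minus hippocampus), 67 (Dnmt3a1-/- minus Dnmt3a1_delta_N) and 591 (Dnmt3a1-/- minus Dnmt3a2-/-), and the cortex minus hippocampus difference of Hba-a2 became -0.0026. DESeq2 called 8 genes in Dnmt3a2-/- cortex, 43 in Dnmt3a1_delta_N cortex (12 higher and 31 lower), 604 in hippocampus and 79 in nuclei, and without robust estimation 0 were called in Dnmt3a2-/- cortex. In hippocampus, DESeq2 called Hba-a2 and Hbb-bt, the fit without robust estimation called Hba-a1, Hba-a2 and Hbb-bt, and the fit without a filter called Hbb-bs, Alas2 and Ighm.

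Against all 8 wild type cortex libraries, 2 genes were called in Dnmt3a2-/- cortex. The sign then changed for Alas2 in Dnmt3a1-/- cortex (0.27), for Hba-a1 (-0.38), Hba-a2 (-0.90), Hbb-bs (-0.44), Hbb-bt (-0.78) and Alas2 (-0.51) in Dnmt3a2-/- cortex, and for Hba-a1 (-0.056), Hbb-bs (-0.17) and Alas2 (-0.21) in Dnmt3a1_delta_N cortex. Without library 1 of the n series in that set (chosen after seeing the data), 3 genes were called in Dnmt3a2-/- cortex and 1, higher, in Dnmt3a1_delta_N cortex, and the sign changed for Hbb-bs (0.072) and Alas2 (0.32) in Dnmt3a1-/- cortex, for Hba-a1 (-0.22), Hba-a2 (-0.87), Hbb-bs (-0.34), Hbb-bt (-0.75) and Alas2 (-0.45) in Dnmt3a2-/- cortex, and for Hbb-bs (-0.060) and Alas2 (-0.15) in Dnmt3a1_delta_N cortex. Without it, 6 genes were called in the Dnmt3a1-/- minus Dnmt3a1_delta_N difference, against 17 with it.

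With the replicate block, which pairs same-numbered libraries, 4941 genes were called in Dnmt3a1-/- cortex, 55 in Dnmt3a2-/- cortex, 33 higher and 86 lower in Dnmt3a1_delta_N cortex, 246 in hippocampus and 740 in nuclei, and Hbb-bt in Dnmt3a1_delta_N cortex became 0.13. The block changed no call of the 6 genes in any tissue. In nuclei it called all 4 globins. Same-numbered libraries correlated at -0.039, 0.291 and 0.041 in hippocampus, and 2 pairs a comparison are too few to take as pairs in Dnmt3a2-/- cortex and nuclei.

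Leaving out 1 library at a time gave 1599 to 2725 called genes in Dnmt3a1-/- cortex, 25 to 139 in Dnmt3a2-/- cortex, 0 to 2 in Dnmt3a1_delta_N cortex (0 to 1 in each direction), 86 to 783 in hippocampus and 4 to 364 in nuclei. In Dnmt3a2-/- cortex the log2 difference then ran from -0.26 to 0.90 for Hba-a1, -0.24 to 0.60 for Hba-a2, -0.13 to 0.62 for Hbb-bt and -0.26 to 0.10 for Ighm. In Dnmt3a1_delta_N cortex it ran from -0.29 to 0.74 for Hba-a1, -0.47 to 0.41 for Hba-a2, -0.18 to 0.86 for Hbb-bs, -0.27 to 0.63 for Hbb-bt and -0.016 to 1.03 for Alas2. Read numbers limit Alas2 in nuclei, with at most 15 reads in a library.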

Other observations

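Globins of other tissues were also read. Ngb, the neuroglobin gene of neurons, was read at 4.02 to 6.17 CPM in Dnmt3a1-/- cortex and 3.19 to 3.84 CPM in wild type cortex, and rose by 0.59 ± 0.18 in log2 (edgeR adjusted p = 0.033, 3 of 3 mutant libraries above every wild type one). In that comparison 8.95% of all genes tested were called higher. Every mutant library lay above every wild type one in 18.4% of them. Cygb, the cytoglobin gene, was read at 14.2 to 17.5 CPM in Dnmt3a1-/- cortex and 10.9 to 14.4 CPM in wild type, and did not pass. Neither passed in hippocampus, nuclei, Dnmt3a2-/- or Dnmt3a1_delta_N cortex, and the differences between these effects did not pass either. The embryonic gene Hbb-y had 16 reads over the 3 Dnmt3a1-/- cortex libraries and 2 reads over the 3 plain wild type libraries, against 13 reads over the n series and 9 over the r series. Of 5 platelet genes tested in Dnmt3a1-/- cortex 0 were called, and of 6 genes of other white cells 1 was called, Plac8, as higher (1.69 ± 0.47, adjusted p = 0.032).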
